A study of Mus musculus with 4 samples.

Results

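The integrins and laminins described here are 34 genes of the 18193 measured. They were taken by symbol: every integrin alpha chain (Itga), integrin beta chain (Itgb) and laminin chain (Lama, Lamb, Lamc) with at least 1 probe set that the platform annotation pairs with a single gene. This gave 16 alpha and 8 beta subunits of integrins and 10 laminin chains, read by 73 probe sets. Expression was measured on 4 Affymetrix arrays of RNA from mouse mammary basal cells taken straight from the sorter, which the labels describe as stem cells, myoepithelial cells and myoepithelial progenitors. All animals carried MMTV-Wnt1, a transgene in which a viral promoter active in mammary epithelium drives the Wnt1 ligand, on the mixed background B66SJL/HEV/J, so both diets share the transgene and no array shows a gland without it. The controls, 2 arrays, came from the control casein (CAS) diet, and the other 2 from the soy protein isolate (SPI) diet. The ages of the mice, the antibodies of the sort and the number of animals behind an array are not given in the sources used here. Whether arrays of 1 diet stand for separate animals is not stated either, so p-values measure only how far these samples spread, and that spread may be technical.

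Integrins are adhesion receptors made of 1 alpha and 1 beta chain, and laminins are trimers of 1 alpha, 1 beta and 1 gamma chain that form the sheet of basement membrane under an epithelium. Mammary basal cells sit directly on that sheet. They hold it through hemidesmosomes, built on the integrin of Itga6 and Itgb4, and through integrins that contain Itgb1. Antibodies to the proteins of Itga6 and Itgb1 are widely used to sort mammary basal cells, so the level of these genes in a sorted population can be set by a gate.

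The deposited values are on the log2 scale and centred per probe set, so 0 is the median of the 4 arrays and only differences between arrays can be read. For a gene read by a single probe set whose diets do not overlap, the inner array of each diet therefore has the same value with opposite sign. The decimals still place each probe set in a coarse level class before centring (log2 level 8 to 16, 4 to 8, 2 to 4 or under 2). The probe sets used for 19 of the 34 genes lay at 8 to 16 and those of the other 15 at 4 to 8, a range that does not by itself establish expression. Of all 18193 genes, 5904 lay at 8 to 16.

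On the SPI diet, Lama2 and Itgb6 fell, Itga8 rose, and the other 31 genes did not pass the test. Lama2 encodes the laminin alpha chain of muscle, nerve and connective tissue, Itgb6 an epithelial partner of Itgav, and Itga8 a partner of Itgb1 that recognizes nephronectin. The falls were 2.47-fold for Lama2 and 1.77-fold for Itgb6, and the rise of Itga8 was 1.37-fold. The 3 genes are 8.82% of the 34, and over all genes the same test (limma, Benjamini-Hochberg adjusted p under 0.05) called 671 of 18193, or 3.69%, with 2.90% lower and 0.792% higher in SPI (527 and 144 genes, but 518 and 1675 after each array was centred on its hybridization controls, transcripts added to every array). At an unadjusted p under 0.05 by limma lay 10 of the 34 (29.4%), against 21.0% of all genes. The SPI arrays lay wholly on one side of the CAS arrays in 20 of the 34 (58.8%), against 51.8% of all genes, so that criterion separated these genes little from the background. With replicate 1 of CAS left out, limma called 0 members, and so it did without replicate 2 of CAS, replicate 1 of SPI and replicate 2 of SPI. These fits called 0 of all genes, with 6 to 10 members and 2495 to 3076 genes at an unadjusted p under 0.05.

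**Figure D1:**
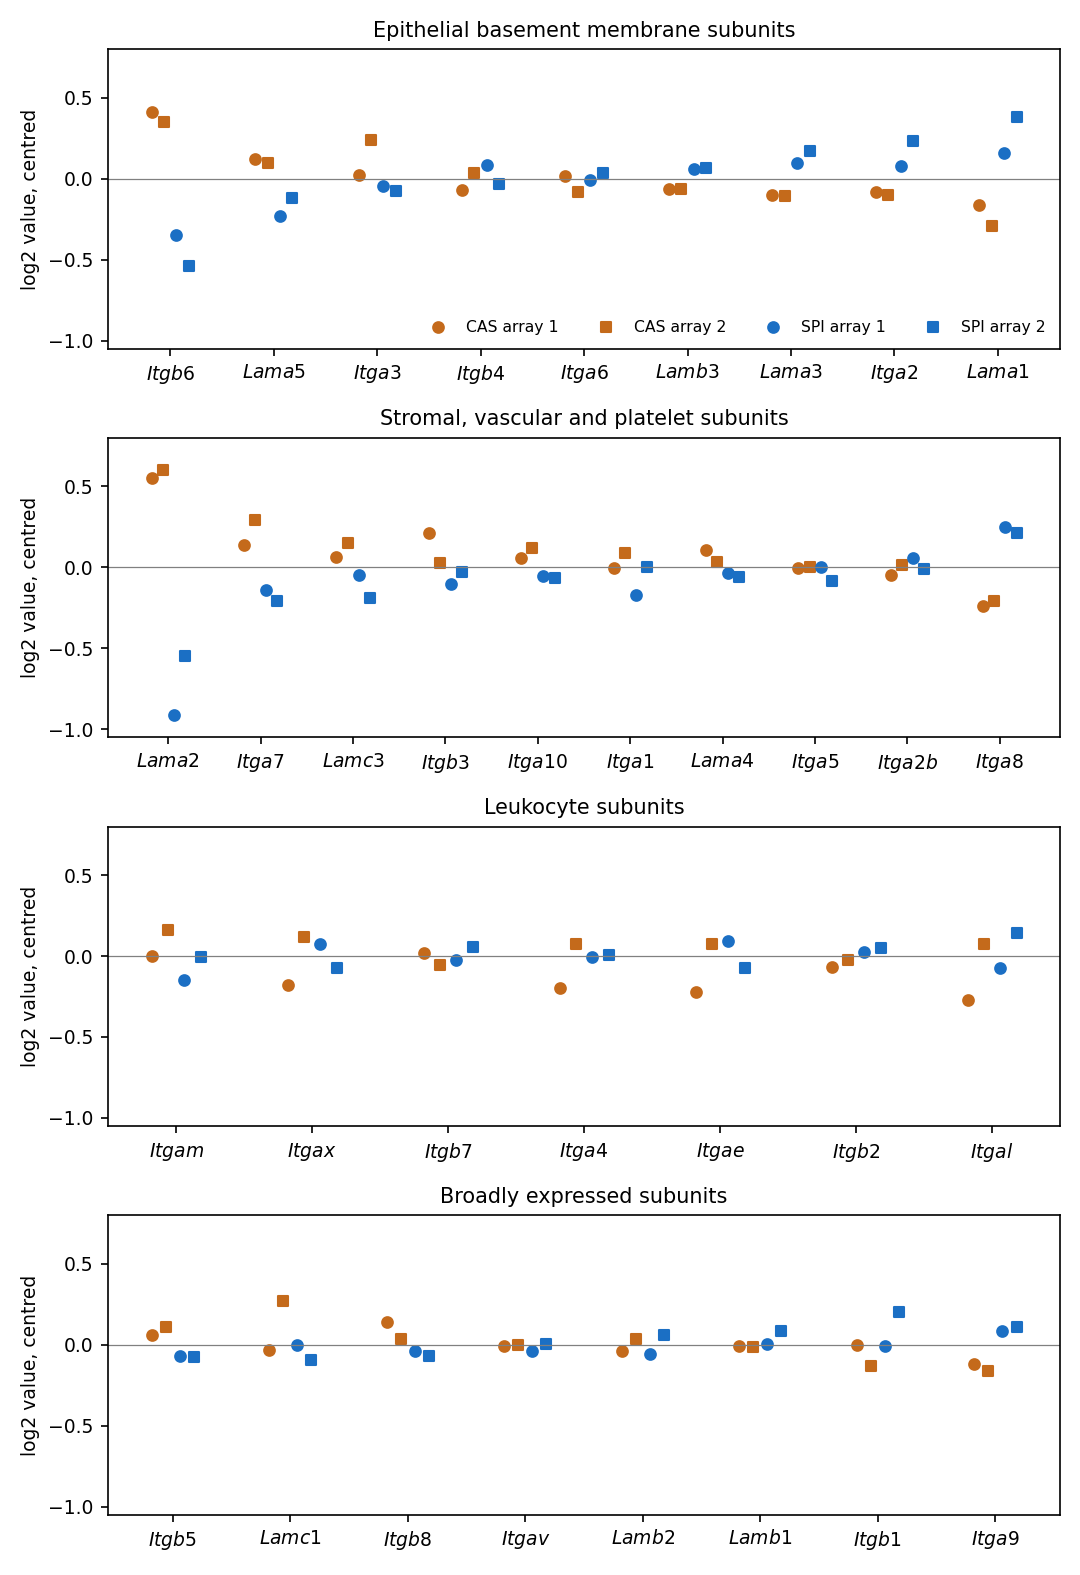
The vertical axis is the log2 value centred on the median of the 4 arrays, and each gene on the horizontal axis has its 2 CAS arrays in orange and 2 SPI arrays in blue, circles for replicate 1 and squares for replicate 2. Lama2 (CAS 0.55 and 0.60, SPI -0.91 and -0.55), Itgb6 and Itga8 have the diets well apart. In the leukocyte panel the diets overlap in 5 of 7 genes, against 8773 of all 18193 genes.

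The subunits were set in groups by where they are mainly found, from general knowledge. Of 9 epithelial basement membrane genes, Itgb6 fell, 0 rose and 8 did not pass, with a median log2 difference (SPI minus CAS) of 0.047. The differences in this group went both ways, from -0.83 to 0.50. At an unadjusted p under 0.05 in limma, 2 were lower and 3 higher, against 21.0% of all genes in either direction. Itgb6 was counted in this group as an epithelial chain. The ligands given for its receptor below are fibronectin, tenascin-C and latent TGF-beta, not laminins. Of 10 stromal, vascular and platelet genes, Lama2 fell, Itga8 rose and 8 did not pass, with a median of -0.14. By the unadjusted p under 0.05 in limma, 3 were lower and 1 higher. In 6 of these 10 both SPI arrays lay below both CAS arrays, as they did in 22.4% of all genes, and in 1 they lay above, as in 29.4% of all genes. None of 7 leukocyte genes and none of 8 broadly expressed genes passed in limma. Of them 0 and 1 had an unadjusted p under 0.05, against 21.0% of all genes, and their medians were 0.062 and -0.0046. Over all genes the median was 0.021. Differences between the groups were not tested. Endothelial markers were lower on the same arrays as most of the stromal and vascular genes. Of 7 such markers 3 fell and 0 rose, against 2.90% of all genes that fell. All 7 had an unadjusted p under 0.05 in limma, against 21.0% of all genes, and both SPI arrays below both CAS arrays. Their medians were 0.33 on each CAS array and -0.29 and -0.42 in SPI, and the part of endothelial cells in these differences was not tested.

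**Figure D2:**
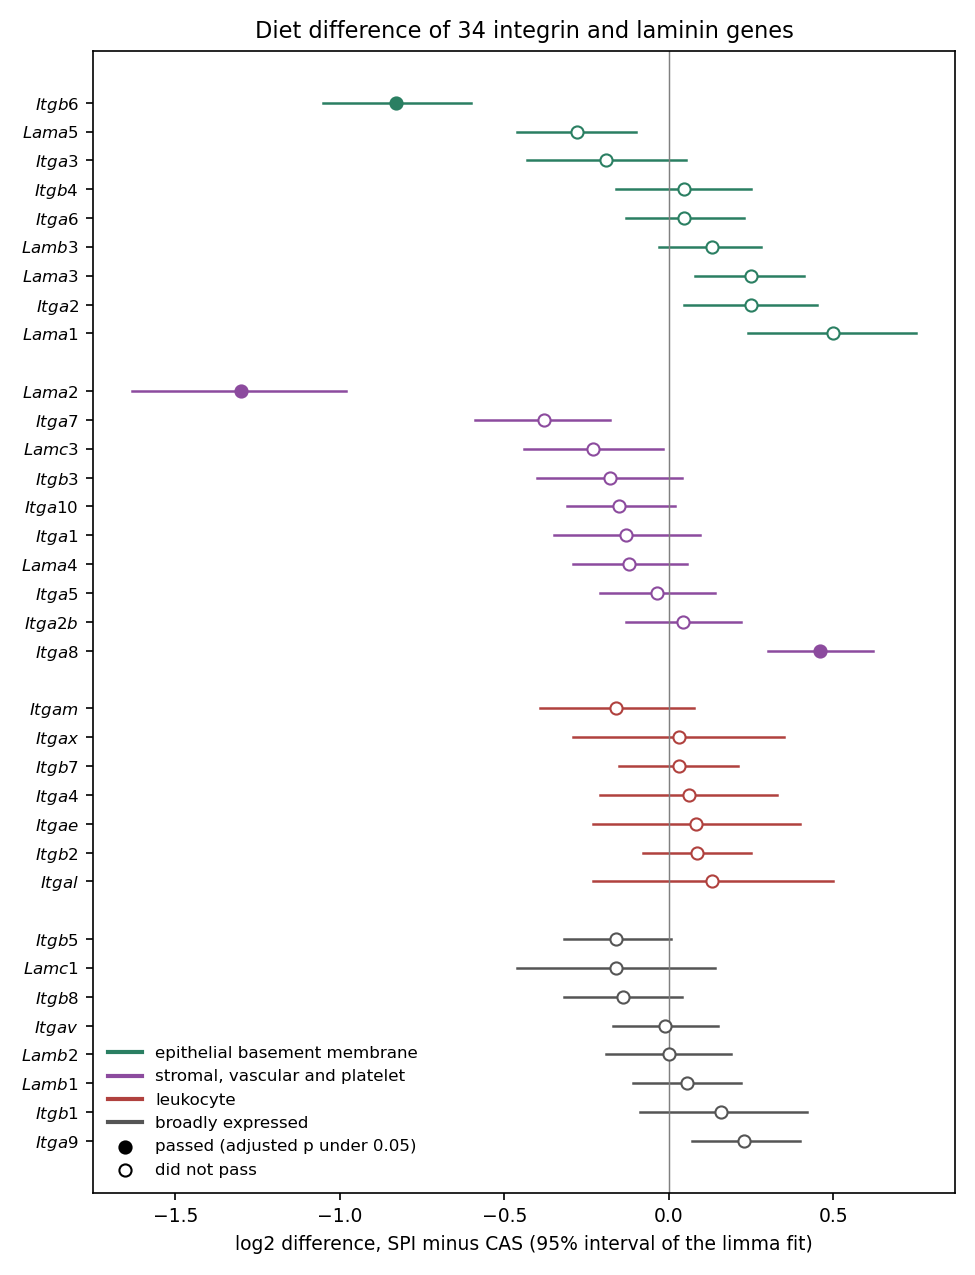
The horizontal axis is the log2 difference SPI minus CAS with its 95% interval from the limma fit, and each row is a gene, coloured by group. Filled points passed an adjusted p under 0.05. Lama2 at -1.30, Itgb6 at -0.83 and Itga8 at 0.46 are the filled points, and Lama1 at 0.50 is open.

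Lama2 read 0.55 and 0.60 in CAS and -0.91 and -0.55 in SPI. Both SPI arrays were low and lay far below both CAS arrays, although they differed from each other more than the CAS arrays did. The means were 0.58 ± 0.033 in CAS and -0.73 ± 0.25 in SPI (SD, n = 2 arrays each). The gene was 2.47-fold lower in SPI (95% interval 1.97 to 3.10, limma adjusted p = 0.0135). It was read by 1 probe set, at level 4 to 8. Without 1 array the difference lay between -1.48 and -1.13 on the log2 scale. The call was lost each time, as were the calls of all other genes.

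Lama2 is made mostly by mesenchymal cells in connective tissue, and the fibroblast markers moved with it. Of 9 such markers, 7 fell and 0 rose, against 2.90% of all genes that fell. Their medians were 0.63 and 0.70 in CAS and -0.63 and -0.67 in SPI. Of 6 pericyte and smooth muscle markers 4 fell, with medians of 0.53 and 0.45 in CAS and -0.43 and -0.58 in SPI. The fibroblast genes Dcn and Fbln2 did not pass (0.0080 and -0.14). The deposited values hold no levels, so neither the summed level of a list nor a marker at zero can be given. In a bulk sample, fewer cells of a type and less RNA per cell cannot be told apart, and the part of these cells in the fall of Lama2 was not tested.

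Itgb6 read 0.41 and 0.35 in CAS and -0.35 and -0.54 in SPI. The gap between the diets was wider than the spread within either. The means were 0.38 ± 0.042 in CAS and -0.45 ± 0.14 in SPI (SD, n = 2), a 1.77-fold fall (1.52 to 2.08, limma adjusted p = 0.0166). Itgb6 pairs only with Itgav, and that receptor binds fibronectin, tenascin-C and latent TGF-beta on epithelial cells. Its partner Itgav, which also pairs with other beta chains, was at -0.011 (95% interval -0.17 to 0.15, limma adjusted p = 0.95). The second Itgb6 probe set, at level 2 to 4 and so not used, read 0.16 and 0.14 in CAS and -0.14 and -0.20 in SPI, a difference of -0.32 that did not pass on its own (limma adjusted p = 0.14). Averaged over both probe sets Itgb6 was lower by -0.57 (limma adjusted p = 0.0209). The call was lost without any 1 array, as were those of all other genes, and the differences then lay between -0.92 and -0.73.

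Luminal epithelial markers were lower on the same arrays as Itgb6. Of 8 such markers 3 fell and 0 rose, against 2.90% of all genes that fell, and 7 of the 8 had both SPI arrays below both CAS arrays, as 22.4% of all genes did. Their median was 0.23 and 0.24 in CAS and -0.21 and -0.27 in SPI. The part of luminal cells in the fall of Itgb6 was not tested.

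Itga8 read -0.24 and -0.21 in CAS and 0.25 and 0.21 in SPI. Replicates lay close together, and both SPI arrays were above both CAS arrays. The means were -0.23 ± 0.019 and 0.23 ± 0.023 (SD, n = 2), a 1.37-fold rise (1.23 to 1.53, limma adjusted p = 0.0314) from a probe set at level 8 to 16. A further probe set at level 4 to 8 read -0.23 and -0.67 in CAS and 0.23 and 0.30 in SPI, a difference of 0.72. When every probe set was tested separately neither passed (limma adjusted p = 0.0667 and 0.121). Without 1 array the difference lay between 0.44 and 0.47. It did not pass then, and neither did that of any other gene. Itga8 is known from smooth muscle and other contractile cells. The contractile genes Acta2, Myh11 and Cnn1, which basal mammary cells share with smooth muscle, were at 0.040, 0.069 and -0.085 and did not pass, and the pericyte and smooth muscle list above was lower in SPI. Of 8 basal epithelial markers, Acta2, Myh11 and Cnn1 among them, 2 rose and 0 fell, against 0.792% of all genes that rose. The 2 were Oxtr (0.68, limma adjusted p = 0.012) and Trp63 (0.54, limma adjusted p = 0.0315). The basal keratins Krt5, Krt14 and Krt17 were at -0.042, 0.15 and 0.18 and did not pass. In 6 of the 8 both SPI arrays lay above both CAS arrays, as in 29.4% of all genes. The list medians were -0.079 and -0.028 in CAS and 0.018 and 0.028 in SPI. Neither the part of smooth muscle or other contractile cells nor that of a different share of basal cells in the rise of Itga8 was tested.

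**Figure D3:**
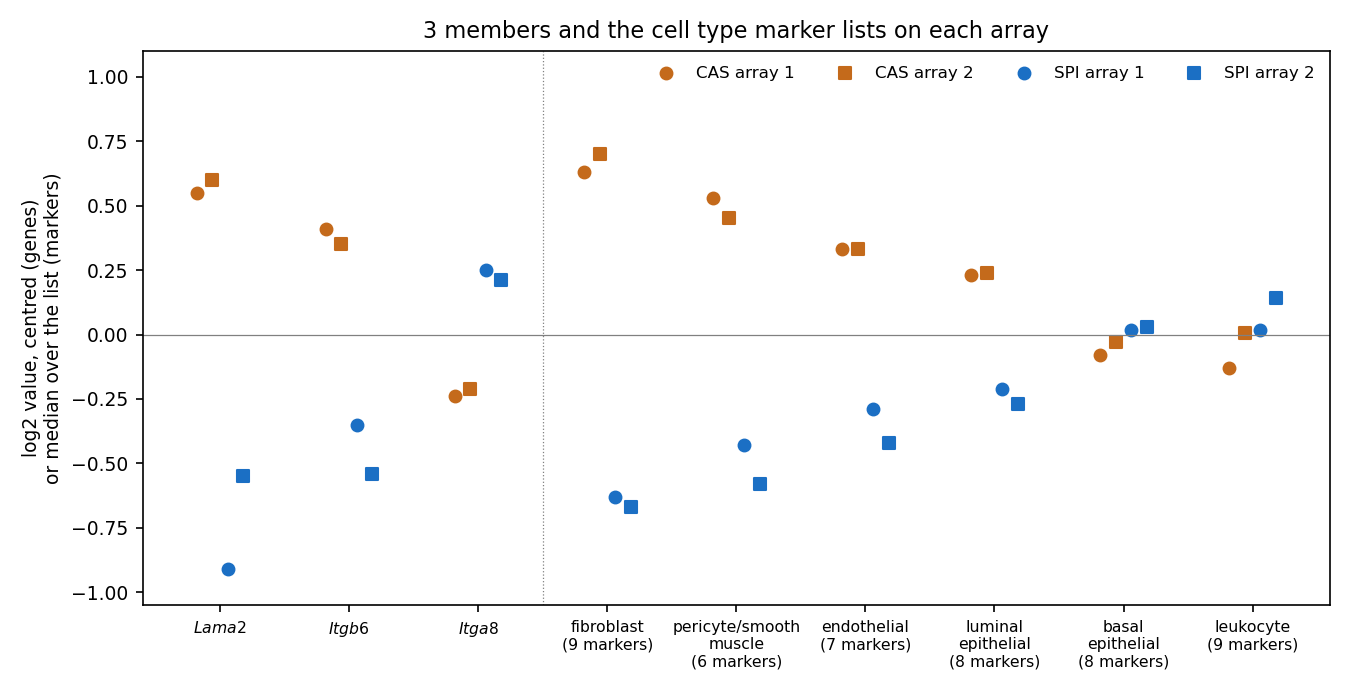
The vertical axis is the centred log2 value of 3 genes (left of the dotted line) or the median over a marker list (right), on each CAS (orange) and SPI (blue) array. Fibroblast markers (0.63 and 0.70 in CAS, -0.63 and -0.67 in SPI) and luminal markers are on the same side as Lama2 and Itgb6, while Itga8 is on the other.

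The promoters of the 3 genes that passed show how unlike their start sites are. The 250 bases before the annotated start are given 5′ to 3′ from RefSeq on GRCm38.p6, all on the minus strand, with each CG pair in capitals, since CG-rich starts are typical of widely used promoters. Lama2 lies at chr10:27616943-27617192, Itgb6 at chr2:60722604-60722853 and Itga8 at chr2:12301945-12302194.
Lama2: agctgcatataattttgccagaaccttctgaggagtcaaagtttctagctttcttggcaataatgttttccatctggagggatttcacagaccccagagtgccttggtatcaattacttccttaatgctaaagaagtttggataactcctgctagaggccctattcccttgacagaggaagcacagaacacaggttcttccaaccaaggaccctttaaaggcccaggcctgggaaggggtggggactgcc
Itgb6: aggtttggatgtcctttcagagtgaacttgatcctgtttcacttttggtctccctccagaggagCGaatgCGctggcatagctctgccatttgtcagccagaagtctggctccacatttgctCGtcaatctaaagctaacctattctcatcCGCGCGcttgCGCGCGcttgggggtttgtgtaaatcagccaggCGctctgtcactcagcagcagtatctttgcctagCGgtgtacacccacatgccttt
Itga8: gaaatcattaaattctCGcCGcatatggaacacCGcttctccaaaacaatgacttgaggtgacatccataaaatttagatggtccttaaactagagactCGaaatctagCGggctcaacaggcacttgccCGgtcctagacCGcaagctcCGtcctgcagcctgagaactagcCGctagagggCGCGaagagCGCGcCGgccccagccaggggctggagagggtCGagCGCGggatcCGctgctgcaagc
The Lama2 window holds 0 CG pairs, as do 7.87% of 32851 such windows, and its GC content is 47.2%. The Itgb6 window holds 11 CG pairs, a number reached by 35.6% of windows, and the Itga8 window 18, reached by 21.7%. The median over all windows is 6 CG pairs and a GC content of 52.4%. Itgb6 has another annotated start, at chr2:60673694-60673943 with 3 CG pairs, and the arrays do not show which start was used. Both strands were searched for the TATA box TATAAA (held by 12.4% of all windows), the Sp1 site GGGCGG (32.7%), the AP-1 site TGANTCA (6.75%) and the STAT site TTCNNNGAA (7.02%), and 0 matches were found in the windows shown. No match says only that those letters are not in the window.

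The laminin alpha chains, which decide which receptors a laminin binds, were represented by 5 genes, of which Lama2 alone passed. Beside the fall of Lama2, Lama1 read -0.16 and -0.29 in CAS and 0.16 and 0.38 in SPI. Both SPI arrays were above both CAS arrays, but the difference of 0.50 (0.24 to 0.75) missed the threshold (limma adjusted p = 0.0723). Lama1, the chain of embryonic basement membranes and of the classic laminin of mammary culture gels, passed when only genes at level 4 or above were tested (limma adjusted p = 0.0444). Lama3, the chain of hemidesmosomes, read -0.10 and -0.11 in CAS and 0.10 and 0.17 in SPI, a difference of 0.25 (limma adjusted p = 0.124). Lama5, an alpha chain of many adult epithelia and of vessels, read 0.12 and 0.094 in CAS and -0.23 and -0.12 in SPI, a difference of -0.28 (limma adjusted p = 0.109). Lama4, found in vessels and around fat cells, was at -0.12 (-0.29 to 0.055). The diets did not overlap in any of the 5 alpha chains, a pattern that 51.8% of all genes show.

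None of the 5 beta and gamma chains that assemble with these alpha chains passed in limma. Of them 1 had an unadjusted p under 0.05, against 21.0% of all genes. Lamb1 was at 0.056 (-0.11 to 0.22), Lamb2 at 0.0014 (-0.19 to 0.19) and Lamc1, the gamma chain of most laminins, at -0.16 (-0.46 to 0.14). Lamb3, which joins Lama3 under hemidesmosomes, read -0.061 and -0.066 in CAS and 0.061 and 0.065 in SPI. That difference of 0.13 was small but not overlapping, and it did not pass (limma adjusted p = 0.318). Lamc3 read 0.066 and 0.15 in CAS and -0.044 and -0.19 in SPI. Its difference of -0.23 had an unadjusted p of 0.0383 in limma (limma adjusted p = 0.209), and its probe sets were at -0.13 and -0.32.

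Neither chain of the hemidesmosome integrin passed. Itga6 read 0.014 and -0.083 in CAS and -0.011 and 0.037 in SPI, a difference of 0.047 (-0.13 to 0.23). Itgb4 read -0.072 and 0.035 in CAS and 0.087 and -0.035 in SPI, a difference of 0.045 (-0.16 to 0.25). In both genes the arrays of the diets overlapped, and the intervals leave room for modest changes either way. Itgb1, the beta chain shared by most laminin and collagen receptors, was at 0.16 (-0.088 to 0.42, limma adjusted p = 0.412), with SPI replicate 2 alone high at 0.20. Itga3, which pairs with Itgb1 and binds the laminin of Lama3, was at -0.19 (limma adjusted p = 0.328). Itga7, the laminin receptor of muscle, read 0.14 and 0.29 in CAS and -0.14 and -0.21 in SPI. Its difference of -0.38 (-0.59 to -0.18) missed the threshold (limma adjusted p = 0.0798), and passed among genes at level 4 or above (limma adjusted p = 0.0481).

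Collagen receptors did not pass either. Itga2, the collagen receptor of epithelia and platelets, read -0.080 and -0.10 in CAS and 0.080 and 0.23 in SPI. The difference was 0.25 (0.046 to 0.45, limma adjusted p = 0.171). Itga1, which stromal and smooth muscle cells carry, was at -0.13, and Itga10, the receptor of cartilage, at -0.15. Itga11 was not analysed here.

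Among receptors for fibronectin, vitronectin and related proteins, Itgb6 and Itga8 passed and the others did not. Itga9, a receptor for tenascin-C that basal epithelia also carry, read -0.12 and -0.16 in CAS and 0.083 and 0.11 in SPI, with all 3 of its probe sets above zero (0.12, 0.22 and 0.35). Its difference of 0.23 had a limma adjusted p of 0.13. Itga5, the main fibronectin receptor, was at -0.037 (-0.21 to 0.14), Itgb3 at -0.18, Itgb5 at -0.16 and Itgb8 at -0.14. Itga2b, the platelet chain, was at 0.043. The diets overlapped in Itga5, Itgav and Itga2b.

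Leukocyte integrins showed no member past the threshold. Itgb2, the beta chain common to several of them, read -0.069 and -0.025 in CAS and 0.025 and 0.052 in SPI, a difference of 0.086 (-0.077 to 0.25). Itgal, its partner on lymphocytes, was at 0.13 (-0.23 to 0.50) and Itgam, its partner on myeloid cells, at -0.16 (-0.39 to 0.077). Itgax, of dendritic cells and macrophages, Itgae, of lymphocytes that hold on to epithelium, Itga4 and Itgb7 lay between 0.030 and 0.083. CAS replicate 1 was the lowest array in 5 of the 7 genes (Itgal, Itgae, Itga4, Itgax and Itgb2). Of 9 leukocyte markers 0 passed in limma, with 3 at an unadjusted p under 0.05, against 21.0% of all genes. The 3 went both ways, Cd53 lower (-0.23) and Cd68 and Adgre1 higher (0.51 and 0.34). Their median was -0.13 and 0.0060 in CAS and 0.019 and 0.14 in SPI.

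Of 20 members read by several probe sets, 15 had all of them on one side of zero and 5 had them on both. Both Itga6 probe sets lay near zero (0.033 and 0.060), and those of Itgb5 were all below zero, from -0.20 to -0.11. Itgav disagreed, with probe sets from -0.19 to 0.12, as did Lamb1 (-0.11 to 0.20), Itga5 (-0.15 to 0.13) and, closer to zero, Itga4 (-0.073 to 0.062). Itgb1 had 1 probe set at -0.0049 and the rest above zero, up to 0.23. The mean of such a gene can hide opposite readings.

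**Figure D4:**
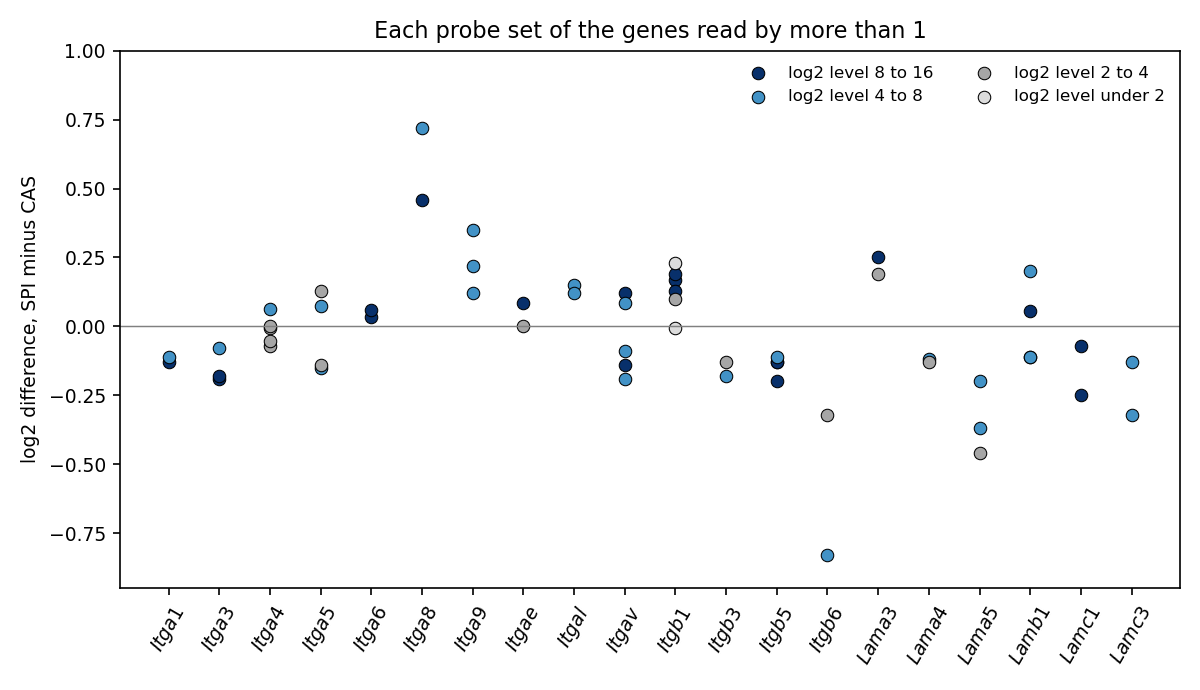
Each point is a probe set of a gene read by more than 1, placed by its log2 difference SPI minus CAS on the vertical axis and shaded by its level class. Both Itgb6 probe sets are below zero (-0.83 and -0.32), both Itga8 probe sets above (0.46 and 0.72), and those of Itgav fall on either side.

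Ligands and partners of integrins were taken from lists of genes outside the family. Of 23 ligands measured, 9 fell, 0 rose and 14 did not pass, against 2.90% of all genes that fell. The median of the ligands was -0.18. The 8 with the smallest p were Col3a1, Fn1, Col1a1, Col1a2, Vtn, Tnc, Vcam1 and Postn. Fn1, fibronectin, was lower by -1.38, Vtn, vitronectin, by -1.46 and Tnc, tenascin-C, by -0.78 on the log2 scale (limma adjusted p = 0.00329, 0.00843 and 0.0116). These 3 bind Itgb6- or Itga8-containing receptors. Fn1 read 0.66 and 0.72 in CAS and -0.66 and -0.73 in SPI. The list shares 4 genes (Col1a1, Col1a2, Col3a1 and Postn) with the fibroblast markers above, and the part of fibroblasts in these falls was not tested. The 9 falls were lost without any 1 array, as were the calls of all other genes. Centring on the hybridization controls left 9 lower and 2 higher.

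Of 20 basement membrane and hemidesmosome partners, 2 fell, 0 rose and 18 did not pass, against 2.90% of all genes that fell. Nid1, nidogen, which links laminin to type IV collagen, read 0.29 and 0.26 in CAS and -0.39 and -0.26 in SPI, a difference of -0.60 (limma adjusted p = 0.0235). Bcam, a surface receptor for Lama5, read 0.19 and 0.21 in CAS and -0.23 and -0.19 in SPI, a difference of -0.42 (limma adjusted p = 0.0388). In both genes the diets were clearly apart. Without any 1 array no partner passed, and neither did any other gene. Centring on the hybridization controls gave 1 lower and 2 higher, with 1 of the 3 among those that passed before. Npnt, nephronectin, the ligand of Itga8 in basement membranes, was chosen after its value was seen. It read -0.092 and -0.13 in CAS and 0.15 on each SPI array, a difference of 0.26 that did not pass (limma adjusted p = 0.103). Adhesion adaptors are the cytoplasmic proteins that tie integrin tails to actin. Of 27 measured, 0 passed in limma and 4 had an unadjusted p under 0.05, against 21.0% of all genes. Their median was 0.087.

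All 8 basal epithelial markers, Krt5, Krt14, Trp63 and Acta2 among them, had probe sets at level 8 to 16, against 5904 of all 18193 genes. So had 6 of 8 luminal markers and 6 of 9 fibroblast markers, and 2 of 9 leukocyte markers. In the other lists it was 1 of 7 endothelial, 2 of 6 pericyte and smooth muscle and 0 of 3 platelet markers. Pecam1, Tek and Kcnj8 of these were only at level 2 to 4. When the hybridization controls were used for centring, the median of all genes moved from 0.021 to 0.18 and 7 members passed. Lama2 (-1.15) and Itgb6 (-0.67) were then lower and Itga8 (0.61), Lama1 (0.65), Lama3 (0.40), Itga9 (0.39) and Itga2 (0.40) higher. The 3 genes that passed before lay on the same side of that median as before.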

How the data were processed

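The deposited values are log2 expression values. Per the submitters' processing notes the authors used GCOS and RMA, whose versions are not given here. The median of the 4 arrays was 0 within 5e-07 for every probe set, so the authors' log2 values had also been centred, a step no label records. No genome build is named. Of 45101 probe sets, 64 are controls, 34945 have 1 gene in the platform annotation, 932 several, and 9160 are unnamed here. A table of GRCm38.p6 matched 34741 of the 34945 by gene ID.

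Level classes came from the step size left in the decimals (71 of 90 ribosomal protein probe sets lay at 8 to 16, against 1 of 43 of olfactory receptors). Each gene was given the mean over its probe sets of the highest class, a class that a strong change can itself lower. The test was limma 3.58.1 in R 4.3.3 (two-sided, SPI minus CAS, 2 residual and 3.02 prior degrees of freedom, Benjamini-Hochberg over 18193 genes). The same fit was run on simulated independent normal values with variances from limma's fitted prior. Such data meet the assumptions of the fit, so they do not test these for the arrays here. The number of arrays limits the precision. An exact permutation test of 2 against 2 arrays cannot go below 0.333 and was not used. A variance trend and quantile normalization need levels and were not used.

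The members, groups and lists were chosen with earlier results of these data known. All members are described, those at an unadjusted p under 0.05 with all arrays, and at most 8 genes past the threshold per partner list. Some genes of the lists, among them Ptk2, Fermt1, Spp1, Gp1ba, Itga11 and Itgad, were not analysed here. Of 3 platelet markers 0 passed (median -0.046, none at an unadjusted p under 0.05). Alternatives are in the closing section. Replicate numbers do not pair arrays by label, and deviations of same-numbered arrays correlated at -0.084 across genes.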

Additional observations from a re-analysis of the deposited data

How the results depend on the processing

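Of the 10 members at an unadjusted p under 0.05, every one kept its direction in all 128 alternative values computed for them. Passing on these arrays largely fixes that outcome. The count of 3 members was the same, with the same genes, with arrays centred on their median, with the mean of all probe sets, without cross-hybridizing probe sets and with a robust variance prior. Leaving out 1 array, where a lone array is assumed to vary like the others, gave 0 to 0 calls for the members (of 3), all genes (of 671), epithelial (of 1) and stromal (of 2) members, partners (of 2) and ligands (of 9).

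Centring the arrays on the hybridization controls gave 7 members, 2193 genes (1675 higher and 518 lower, against 144 and 527), 4 epithelial and 1 broadly expressed member, 3 adaptors and 3 partners (2 higher and 1 lower, against 0 and 2). Among genes at level 4 or above they were 5 members, 1085 genes, 2 epithelial members and 1 adaptor. At an adjusted p under 0.1 they were 5 members, 1480 genes, 2 epithelial members, 5 partners and 1 adaptor. With the mean of all probe sets 1 partner passed. With the replicate block, whose numbers are not known to pair the arrays, 355 genes passed, 334 of them among the 671, with 2 members (Lama2 and Itgb6), 1 stromal member and 0 partners (limma adjusted p of Itga8 0.0945). Centring on the hybridization controls takes a single value off each array. It therefore raised the log2 difference of every gene by the same amount, and the median of all genes from 0.021 to 0.18. The cause of the other changes was not tested, except that the looser threshold itself adds calls. At level 4 or above, limma was refitted on 13717 genes instead of 18193. The number of tests and the refitted variance prior were not told apart there. With 2 arrays per diet, a member that did not pass is not shown to be unchanged.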
